A study of Mustela putorius furo with 2 samples.

Results

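The genes described here are the receptors for serotonin (HTR), dopamine (DRD), noradrenaline and adrenaline (ADRA and ADRB), histamine (HRH) and acetylcholine (muscarinic CHRM, nicotinic CHRNA and CHRNB). They were chosen by symbol: every feature of the deposited tables whose symbol begins with 1 of those stems followed by a digit. That gave 45 genes of 28156 features. They were measured by single-nucleus RNA sequencing of ferret (Mustela putorius furo) somatosensory cortex, in 1 library from the upper band and 1 from the deeper band of cortex. Both libraries carry the label DCX knockout for their genotype, while the text of the series speaks of a gene that was knocked down. DCX codes for doublecortin, which binds microtubules in young migrating neurons, and in humans its loss can leave a smooth cortex or a band of misplaced neurons below it. The number, age and sex of the animals are not given in the sources used here, and cortex without the DCX change was not analysed here.

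Neurons that make these transmitters lie mostly outside the cortex, in the brainstem, the hypothalamus and the basal forebrain, and send long axons into it. Cortical cells respond through the receptors listed here. Most are G protein-coupled receptors: the HTR2 and ADRA1 groups, CHRM1, CHRM3 and CHRM5 act mainly through Gq and phospholipase C, while HTR4, HTR7, DRD1, DRD5 and HRH2 raise cyclic AMP and CHRM2, CHRM4, DRD2, DRD3 and the HTR1 group lower it. The HTR3 and nicotinic receptors are ion channels built from subunits. In the cortex, receptor subtypes are known for their unequal distribution over layers and interneuron types.

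The libraries held 7151 and 9694 barcodes with 66253015 and 78352064 unique molecular identifiers (UMIs, each standing for 1 captured RNA molecule). After removal of shallow barcodes and called doublets, 6261 upper-band and 8150 deeper-band nuclei remained, with medians of 7992 and 4887.5 UMIs, and 24 barcode sequences occurred in both deposited tables. Levels are given as CPM, a gene's UMIs per 1000000 UMIs, and where values come in pairs the upper band stands first. DCX itself was detected in both libraries, at 77.6 and 77.6 CPM, and with no other genotype at hand these levels do not check the label. Nuclei were clustered with the receptor genes left out of the variable genes, and clusters were named by marker genes, so every name means resemblance. Excitatory neuron-like nuclei numbered 3165 and 3443 in the respective bands, inhibitory neuron-like nuclei 1021 and 769, astrocyte-like 389 and 806, oligodendrocyte-like 857 and 2079, oligodendrocyte precursor-like 125 and 193, and vascular-like 193 and 57. Clusters left unnamed held 503 and 796 nuclei, and the 8 and 7 microglia-like nuclei were too few to use. With 1 library per band there was no test and no p-value, all intervals are 95% intervals for counting error alone, and band, animal and library preparation cannot be told apart. Markers of excitatory neurons were also found in other classes, and the part of free RNA in this was not tested. CAMK2A stood at 1.21% to 4.66% and SV2B at 2.34% to 21.3% of its excitatory level in the astrocyte-like, oligodendrocyte-like and precursor-like classes, but SLC17A7, the vesicular glutamate transporter, at 42.2% to 77.5%. In the vascular-like class CAMK2A stood at 21.1% and 50.7%, and the median over 6 such markers was 50.1% in the upper and 56.8% in the deeper band, so levels in that small class are the least certain.

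Receptor UMIs were concentrated in few genes. Of the 45 receptor genes, 20 (44.4%) had at least 100 UMIs over both libraries, against 54.2% of all features. By family they were 7 of 13 serotonin, 2 of 4 dopamine, 4 of 6 adrenergic, 2 of 4 histamine, 2 of 5 muscarinic and 3 of 13 nicotinic receptor genes. CHRM3 had the most UMIs, 82406, followed by ADRA1A with 15630, CHRNA7 with 10422, HRH2 with 10404 and HTR2A with 8034. Others past this minimum were HTR2C (6121), CHRM2 (5295), ADRA1B (4735), HTR2B (2719), CHRNB2 (1193), DRD2 (1034), ADRA1D (947), HTR4 (894), DRD3 (747), HTR3B (668), HTR5A (517), HRH4 (351), HTR7 (303) and CHRNA1 (123). UMI sums are not compared as levels between genes, because gene length and the counting of introns are not known here.

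The 25 members under 100 UMIs included several that are well known in cortex from other methods. CHRM1, the main postsynaptic muscarinic receptor of cortical pyramidal cells in other mammals, had 19 UMIs, HTR1A 11, DRD1 14, ADRA2A 3 and CHRNA4 37. HTR3A, whose gene marks a large group of interneurons in rodents, had 29. The rest were CHRNA5 (95), CHRNA6 (82), CHRNA3 (80), HTR1F (78), HTR3E (66), CHRNB1 (44), HTR1E (34), CHRNA2 (18), HRH1 (14), CHRM4 (12), CHRNA10 (11), HRH3 (5), CHRM5 (4), CHRNA9, HTR1B and CHRNB3 (3 each), and DRD5, ADRA2B and CHRNB4 (1 each). Such sums set a limit on what these libraries can show about those genes, and they do not show that the genes are off.

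**Figure D1:**
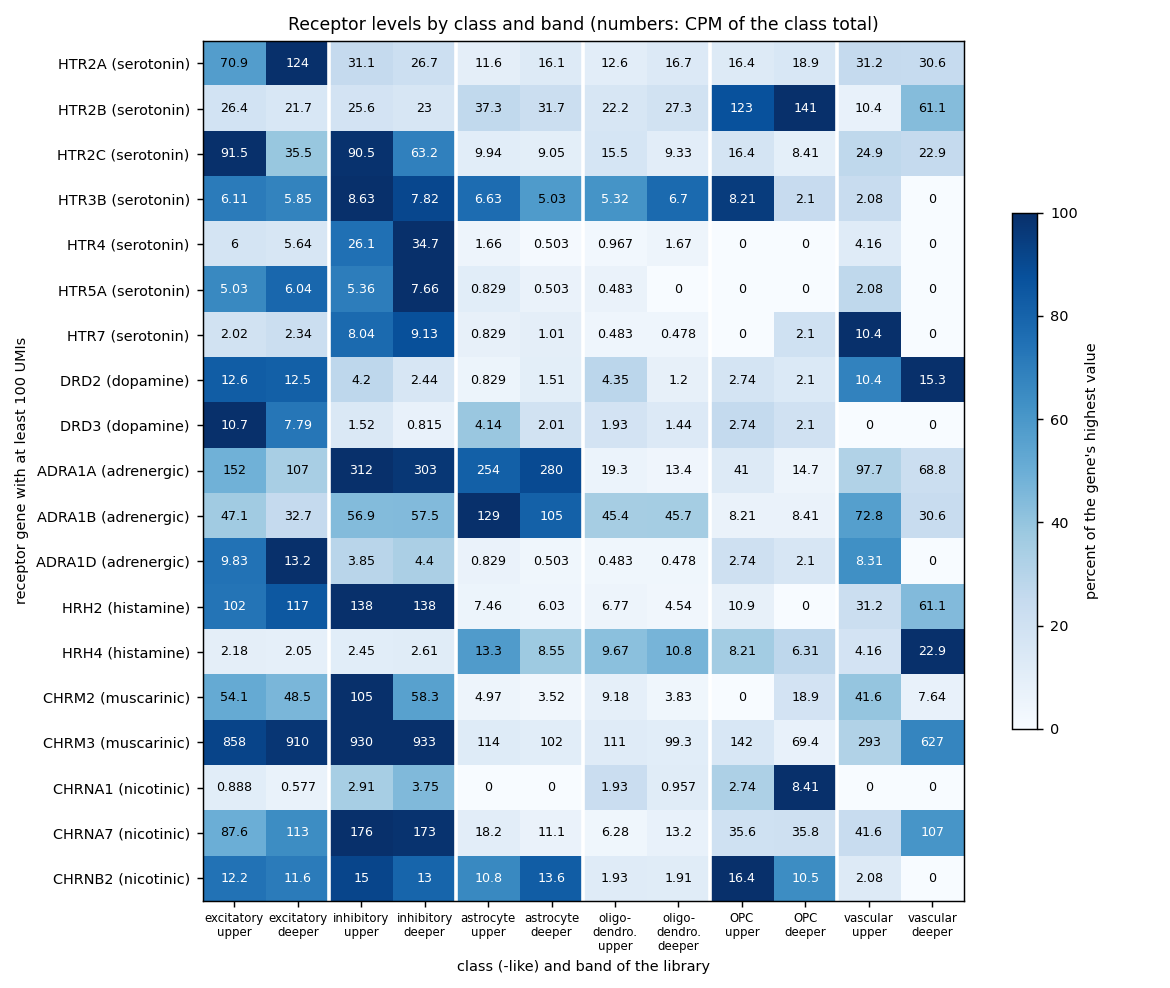
Level of 19 receptor genes with at least 100 UMIs (rows, grouped by transmitter) in 6 classes of nuclei and both bands (columns), with numbers in CPM of the class total and the shade as a percent of the highest value of the row. HTR2B is darkest in the oligodendrocyte precursor-like columns (123 and 141 CPM), HTR2A and DRD3 in the excitatory columns, and ADRA1A is dark in inhibitory and astrocyte-like columns alike.

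Levels by class were expressed as CPM of all UMIs summed over the nuclei of a class in 1 library. A gene counted as class-enriched when its level in 1 class was at least 2-fold above every other class in both libraries. Of the 20 members with at least 100 UMIs, 4 were class-enriched, against 12.3% of all features with as many. They were HTR2A and DRD3 in excitatory nuclei (1.72% of features enriched there), HTR4 in inhibitory nuclei (1.29%) and HTR2B in precursor-like nuclei (1.42%).

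HTR2A, the Gq-coupled receptor at which serotonergic hallucinogens act, stood at 70.9 CPM (interval 68.2 to 73.6) in upper-band and 124 CPM (120 to 127) in deeper-band excitatory nuclei. It stood at 31.1 and 26.7 CPM in inhibitory nuclei and between 11.6 and 18.9 CPM in the astrocyte-like, oligodendrocyte-like and precursor-like classes. A UMI for it was found in 41.3% of upper-band and 61.3% of deeper-band excitatory nuclei, or 10.2% and 16.5% after each nucleus was thinned to 1500 UMIs, against 1.93% and 2.83% of thinned oligodendrocyte-like nuclei. Excitatory nuclei were thus the highest class in both libraries, in level and in thinned share against oligodendrocyte-like nuclei.

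DRD3, a dopamine receptor that lowers cyclic AMP, was found at 10.7 CPM (9.69 to 11.8) and 7.79 CPM (6.93 to 8.73) in excitatory nuclei. In inhibitory nuclei it stood at 1.52 CPM in the upper and 0.815 CPM in the deeper band. Glial levels lay between 1.44 and 4.14 CPM and rested on 1 to 6 UMIs each.

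HTR4, a serotonin receptor that raises cyclic AMP, stood at 26.1 CPM (22.8 to 29.8) and 34.7 CPM (30.2 to 39.7) in inhibitory nuclei. Excitatory nuclei gave 6.004 and 5.64 CPM. Glial nuclei held few molecules, with 2 and 1 UMIs in astrocyte-like nuclei, 2 and 7 in oligodendrocyte-like nuclei and none in precursor-like nuclei of either band, where the bound for a gene with no UMI, set at 3 UMIs, was 8.21 CPM in the upper and 6.31 CPM in the deeper band.

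HTR2B, a Gq-coupled serotonin receptor better known from heart and gut, was highest in precursor-like nuclei in both libraries. Its levels there were 123 CPM (89.8 to 165) and 141 CPM (109 to 179), on 45 and 67 UMIs. In the other classes except the vascular-like it lay between 21.7 and 37.3 CPM. The share of nuclei with a UMI was 26.4% of precursor-like nuclei in each band, near the 24.8% and 19.95% of the much deeper excitatory nuclei, but after thinning to 1500 UMIs it was 16.1% and 14.6% of precursor-like nuclei against 4.09% and 3.26% of excitatory and 3.35% and 3.07% of oligodendrocyte-like nuclei. At equal depth, precursor-like nuclei therefore carried HTR2B more often than any of these classes, in both libraries.

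The vascular-like class limited this count. It gave 61.1 CPM of HTR2B on 8 UMIs in the deeper band, and with it left out, an alternative added after the data were seen, the class-enriched members were 7: HTR7 joined HTR4 in inhibitory nuclei, and DRD2 and ADRA1D joined HTR2A and DRD3 in excitatory nuclei. With each nucleus weighted equally the fold of HTR2A over the next class was 1.89 in the upper band, and that of HTR2B 1.76 in the deeper band, each against the vascular-like class, so both missed the 2-fold rule there. After thinning they missed it too, at 1.83 and 1.69 for HTR2A and 1.46 in the deeper band for HTR2B, and so did HTR4 in the upper band, at 1.45, each against the vascular-like class with 81 and 18 nuclei left. Without the vascular-like class the folds with nuclei weighted equally were 2.31 and 4.68, and the thinned folds of these 3 genes were 2.64 to 5.01.

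Among the members that no single class held, ADRA1A, a Gq-coupled noradrenaline receptor, was shared by inhibitory neurons and astrocytes. It stood at 312 and 303 CPM in inhibitory nuclei, 254 and 280 CPM in astrocyte-like nuclei and 152 and 107 CPM in excitatory nuclei, but at 19.3 and 13.4 CPM in oligodendrocyte-like nuclei. After thinning, 28.1% and 28.7% of astrocyte-like nuclei had an ADRA1A UMI, against 2.96% and 2.05% of oligodendrocyte-like nuclei. ADRA1B, of the same subgroup, had its highest levels in astrocyte-like nuclei, which gave 129 CPM (110 to 151) and 105 CPM (90.9 to 120), against 56.9 and 57.5 CPM in inhibitory and 47.1 and 32.7 CPM in excitatory nuclei. ADRA1D, the third alpha-1 receptor, went the other way, with 1 UMI per band in astrocyte-like nuclei (0.829 and 0.503 CPM) against 9.83 and 13.2 CPM in excitatory nuclei. In the small GFAP-led astrocyte-like cluster, with 4 and 82 nuclei, ADRA1A stood at 266 CPM in the deeper band while ADRA1B had 1 UMI and stood at 6.64 CPM.

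Among the members taken up next, CHRM3, HRH2 and HTR5A were mainly neuronal. CHRM3, a Gq-coupled muscarinic receptor, stood at 858 and 910 CPM in excitatory and 930 and 933 CPM in inhibitory nuclei, and at 7.44% to 15.3% of the higher neuronal level in the astrocyte-like, oligodendrocyte-like and precursor-like classes. HRH2, a histamine receptor that raises cyclic AMP, stood at 102 and 117 CPM in excitatory and 138 and 138 CPM in inhibitory nuclei, with at most 7.93% of the higher neuronal level in those classes. The glial percentages of CHRM3 lie between those given above for CAMK2A and SLC17A7. CHRNB2, a subunit of heteromeric nicotinic receptors, was more even, at 12.2 and 11.6 CPM in excitatory, 15.04 and 13.0 CPM in inhibitory, 10.8 and 13.6 CPM in astrocyte-like and 1.93 and 1.91 CPM in oligodendrocyte-like nuclei. Precursor-like nuclei gave 16.4 and 10.5 CPM of CHRNB2, on 6 and 5 UMIs. HRH4, a histamine receptor of immune cells, ran the other way, with 2.18 and 2.05 CPM in excitatory and 2.45 and 2.61 CPM in inhibitory nuclei. It stood at 9.67 and 10.8 CPM in oligodendrocyte-like, 13.3 and 8.55 CPM in astrocyte-like and, on 3 UMIs per band, 8.21 and 6.31 CPM in precursor-like nuclei. HTR3B, an ion-channel subunit, lay between 5.03 and 8.63 CPM in neurons, astrocyte-like and oligodendrocyte-like nuclei, and HTR5A between 5.03 and 7.66 CPM in neurons.

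Inhibitory and excitatory nuclei were compared within each library, so that this contrast was seen in each of 2 libraries. Of 20 members tested, 5 were at least 2-fold higher in inhibitory nuclei in both libraries (7.21% of all features tested) and 4 at least 2-fold lower (7.62%). The median log2 ratio was 0.37 for the members and 0.088 for all features tested. HTR4 was 4.35-fold and 6.15-fold higher in inhibitory nuclei. HTR7, which like HTR4 raises cyclic AMP, was 3.98-fold and 3.91-fold higher. HTR4 and HTR7 were both higher in inhibitory nuclei in each library, and the lowest bound of their log2 intervals was 1.46.

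CHRNA1, the nicotinic subunit known from muscle, was 3.28-fold and 6.49-fold higher on 25 and 23 inhibitory UMIs, and ADRA1A was 2.05-fold and 2.83-fold higher. ADRA1A came close to the 2-fold limit in the upper band, where its log2 ratio was 1.04 (0.97 to 1.10). Without doublet removal this ratio was 0.998, just under the limit. The members lower in inhibitory nuclei were DRD3, by log2 ratios of -2.82 and -3.26, DRD2, by -1.59 and -2.35, HTR2A, by -1.19 and -2.21, and ADRA1D, by -1.35 and -1.59. Both dopamine receptors with at least 100 UMIs were therefore lower in inhibitory than in excitatory nuclei in each library, DRD2 standing at 12.6 and 12.5 CPM in excitatory against 4.20 and 2.44 CPM in inhibitory nuclei. When nuclei were thinned to 1500 UMIs, 2 members (HTR4 and ADRA1A) kept the higher call. HTR7, with log2 ratios of 1.78 and 1.41, and CHRNA1, with 2.97 and 3.17, stayed past 2-fold but fell under the minimum of 100 UMIs, with 48 and 23 UMIs left. DRD3 likewise lost the lower call with 96 UMIs left. With the number of nuclei removed as doublets raised 2-fold, 3 members kept the higher call, HTR4 and HTR7 among them, while ADRA1A had a log2 ratio of 0.96 in the upper band and CHRNA1 had 87 UMIs left.

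CHRNA7, the subunit of homomeric nicotinic channels, missed the rule, at 2.01-fold higher in the upper band (176 against 87.6 CPM) and 1.53-fold in the deeper band (173 against 113 CPM). CHRM2, a muscarinic receptor that lowers cyclic AMP, was 1.93-fold and 1.20-fold higher. Nicotinic subunits below the minimum were singled out after their values were seen. CHRNA5, an accessory nicotinic subunit, had 51 and 39 UMIs in inhibitory nuclei against 2 and 2 in the far more numerous excitatory nuclei, which gives log2 ratios of 6.79 (4.86 to 9.87) and 6.92 (4.97 to 10.02). CHRNA3 had 27 and 18 inhibitory UMIs against 13 and 13 excitatory ones. The ordering of both subunits was the same in both libraries.

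**Figure D2:**
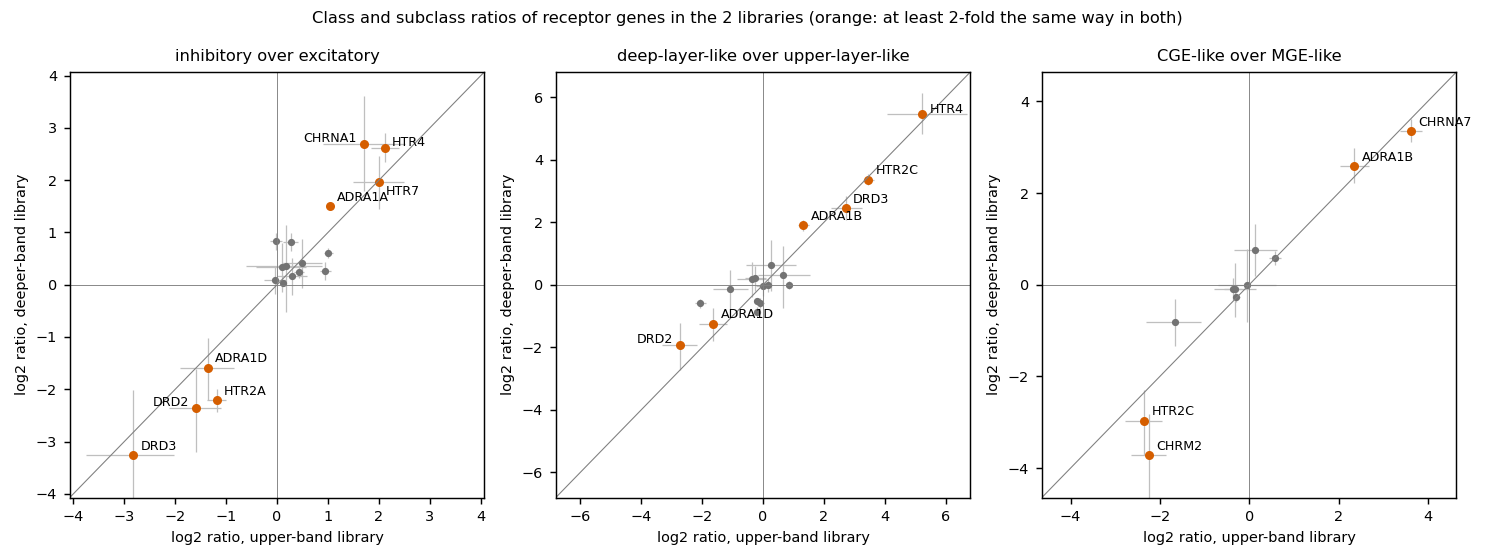
Log2 ratio of CPM between 2 classes or subclasses in the upper-band library (horizontal axis) and the deeper-band library (vertical axis), 1 point for each receptor gene shown and grey bars for 95% counting intervals. Orange points are at least 2-fold apart in the same direction in both libraries: HTR4 is at 5.22 and 5.44 for deep-layer-like over upper-layer-like nuclei and CHRNA7 at 3.61 and 3.36 for CGE-like over MGE-like nuclei.

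Within excitatory nuclei, subclusters were named deep-layer-like or upper-layer-like from layer markers such as FEZF2 and TLE4 or CUX2. Deep-layer-like nuclei numbered 1096 and 523 and upper-layer-like nuclei 1026 and 2482, while 1043 and 438 stayed unnamed. Of 19 members tested, 4 were at least 2-fold higher in deep-layer-like nuclei in both libraries (3.64% of features) and 2 at least 2-fold lower (1.71%). HTR4 stood at 17.5 and 37.1 CPM in deep-layer-like against 0.470 and 0.852 CPM in upper-layer-like nuclei. HTR2C, a Gq-coupled receptor whose RNA is edited, stood at 228 and 150 CPM against 20.8 and 14.7 CPM, or 11.0-fold and 10.2-fold higher. DRD3 was 6.55-fold and 5.47-fold higher and ADRA1B 2.50-fold and 3.74-fold higher. The 2 dopamine receptors went opposite ways, since DRD2 had log2 ratios of -2.73 and -1.92, and with it ADRA1D, at -1.63 and -1.25.

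The nuclei behind these subclasses differed between libraries. The FOXP2-led cluster made up 49.5% of upper-band but 22.9% of deeper-band deep-layer-like nuclei. The MME-led cluster, which was high in CUX2 and RORB, made up 10.1% and 35.2%. Other clusters high in CUX2 were led by PTGIS (2.55% and 9.37%), TLL1 (1.46% and 3.63%) and SYT10 (0.0912% and 1.34%). The deep-layer-like name thus covered many nuclei of CUX2-high clusters in the deeper band, where these ratios are not a clean contrast of layers. HTR2A differed as well: its deep-layer-like levels were 26.5 and 89.3 CPM, against 110 and 134 CPM in upper-layer-like nuclei. After thinning to 1500 UMIs the higher call stayed with HTR2C and ADRA1B alone. HTR4, at log2 ratios of 5.20 and 5.89, DRD3, at 2.96 and 2.59, and DRD2, at -2.89 and -2.34, stayed past 2-fold but had 67, 71 and 82 UMIs left, under the minimum of 100. ADRA1D had 92 UMIs left, and its ratios were -0.96 and -1.16. With 2-fold more doublets removed no member kept the lower call: DRD2 had log2 ratios of -0.67 and 0.028, and ADRA1D of -1.16 and -0.85.

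The 12 excitatory clusters, each called here by its leading gene, gave a finer view. CUX2, a gene of upper-layer neurons, was high in the clusters led by SYT10, PTGIS, MME, MCHR2, CYP2S1 and TLL1. TLE4, a gene of deep-layer neurons, was high in those led by FOXP2 (807 and 748 CPM), HHLA2 (971 and 969) and TRPC7 (711 and 761), and FEZF2 in those led by HHLA2 and NPR3. A member counted as highest in 1 cluster when its level there was at least 2-fold above every other cluster of the class in both libraries, a rule set after the data were seen. It was met by 3 of 19 members in excitatory nuclei, against 2.49% of features, and by 2 of 13 in inhibitory nuclei, against 3.16%.

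HTR2C reached 1178 CPM (1120 to 1237) in upper-band and 1271 CPM (1134 to 1420) in deeper-band nuclei of the HHLA2 cluster, with a UMI in 83.4% and 88.9% of its 157 and 27 nuclei. The next cluster, led by NPR3, gave 295 and 387 CPM, and 6 of the other clusters lay at or below 24.1 CPM in both bands. After thinning, 64.3% and 77.8% of HHLA2 nuclei still had an HTR2C UMI. CHRM2 was highest in the same cluster, at 437 CPM (402 to 473) and 360 CPM (288 to 443), against at most 100.5 and 99.1 CPM elsewhere. HTR4 was also high there, at 103 and 77.7 CPM. One TLE4-high cluster thus held the top excitatory levels of HTR2C and CHRM2 and a high level of HTR4 in both libraries, although it had few nuclei in the deeper band.

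DRD3 was highest in the TRPC7 cluster, which also carried NR4A2 and NXPH4, at 86.1 CPM (66.8 to 109) and 117 CPM (95.6 to 142) in 85 and 90 nuclei. The next levels were 28.5 CPM in the upper and 18.9 CPM in the deeper band. HTR4 stood in this cluster at 68.1 CPM (51.0 to 89.1) in the upper and 194 CPM (166 to 226) in the deeper band. In the other excitatory clusters HTR4 lay at or below 7.49 CPM, except for the TLL1 cluster in the deeper band, where all 13 UMIs came from 5% of 20 nuclei. HTR4 in excitatory nuclei was thus a matter of the HHLA2 and TRPC7 clusters, which together held a minority of the class. HRH2 was low in the TRPC7 cluster, on 7 and 19 UMIs and at no more than 21.8 CPM, and highest in the HHLA2 cluster, at 223 and 274 CPM.

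HTR2A was high in most of the CUX2-high clusters. It stood at 83.9 to 167 CPM in the SYT10, PTGIS, MME, MCHR2 and CYP2S1 clusters of both bands, at 56.0 to 96.1 CPM in the IQGAP2 and GALNT14 clusters, and at 4.09 to 19.3 CPM in the FOXP2, HHLA2, NPR3 and TRPC7 clusters. The small TLL1 cluster, high in CUX2, gave 5.91 and 35.7 CPM. DRD2 was highest in the MCHR2 cluster (34.9 and 28.7 CPM) and the GALNT14 cluster (30.7 and 37.3 CPM) and lay at or below 2.50 CPM in the FOXP2, NPR3, HHLA2 and TRPC7 clusters. DRD2 and DRD3 thus peaked in different clusters in both libraries.

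ADRA1A stood at 516 and 579 CPM in the NPR3 cluster and at 289 and 284 CPM in the CYP2S1 cluster, but at 5.55 to 12.4 CPM in the IQGAP2, MME and TRPC7 clusters. ADRA1B had its highest excitatory level, 473 and 250 CPM, in the TLL1 cluster of 16 and 20 nuclei, and 110 and 179 CPM in the FOXP2 cluster. CHRNA7 was highest in the SYT10 cluster (201 and 208 CPM) and the MCHR2 cluster (194 and 185 CPM), and it lay at 17.8 to 30.0 CPM in the CYP2S1, MME, IQGAP2 and HHLA2 clusters. Neighbouring CUX2-high clusters such as MCHR2 and MME therefore differed several-fold in ADRA1A and CHRNA7, and in the same direction in both libraries. CHRM3 varied less, from 364 CPM in the HHLA2 cluster to 1413 CPM in the TLL1 cluster, and HTR5A, HTR3B and CHRNB2 showed no cluster that was 2-fold above the rest in both bands.

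**Figure D3:**
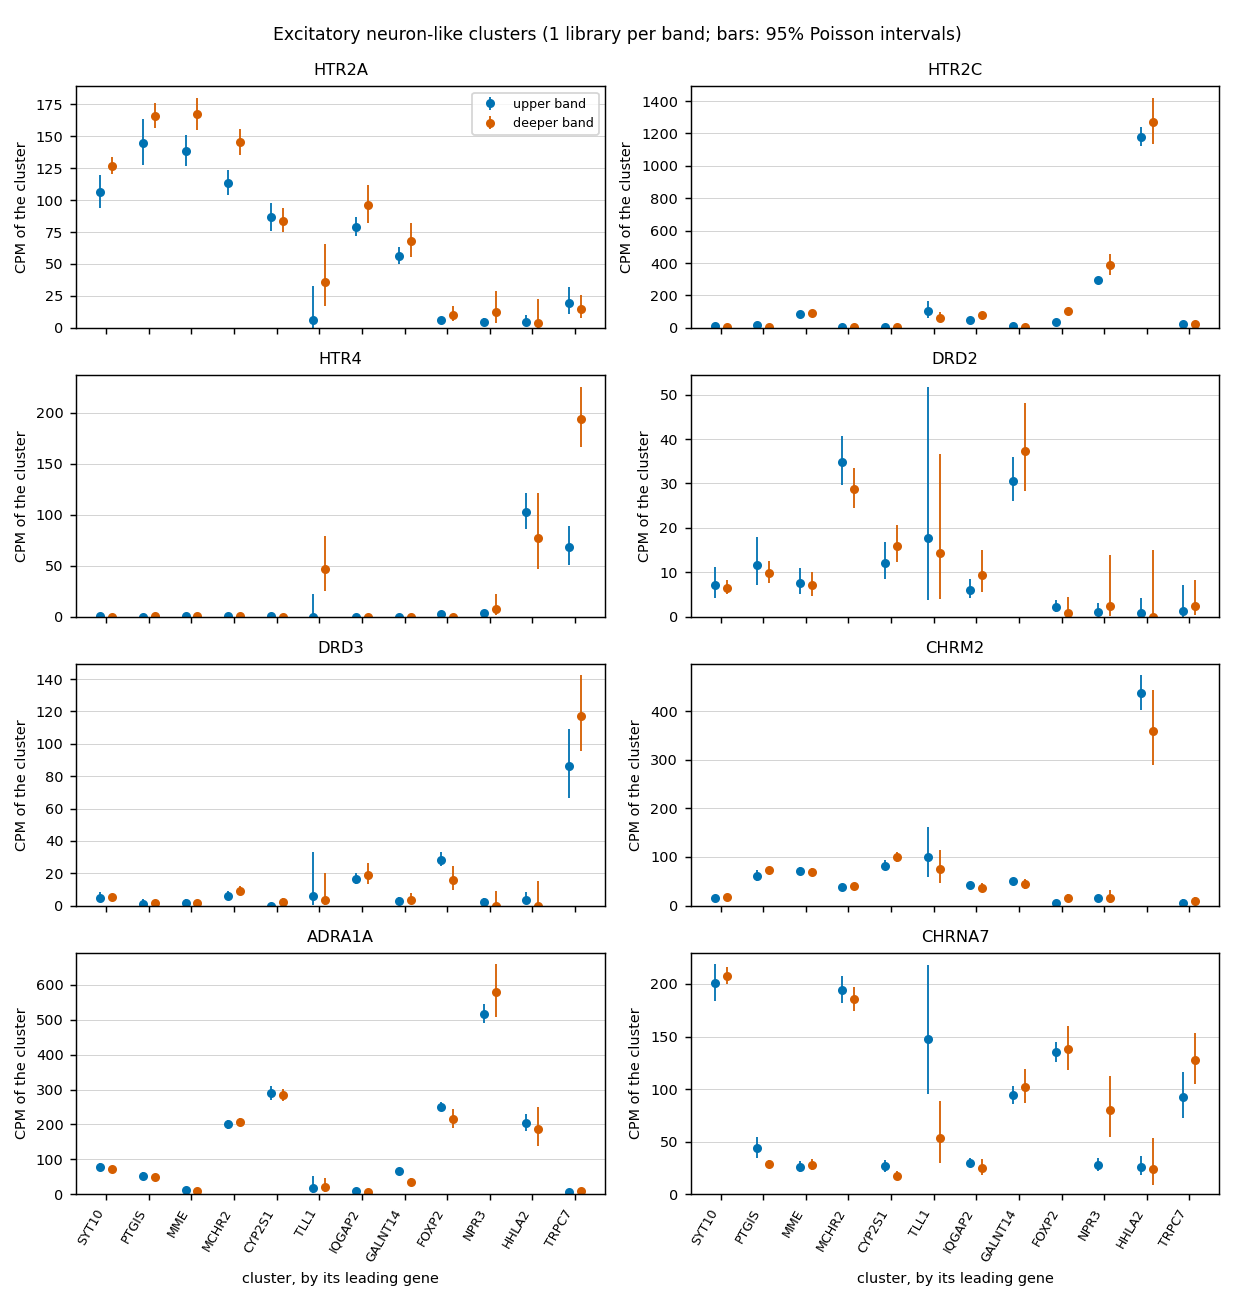
Level of 8 receptor genes (CPM, linear axes that start at 0) in the 12 excitatory neuron-like clusters, named by their leading gene, in the upper-band (blue) and deeper-band (orange) library, with 95% Poisson intervals. HTR2C and CHRM2 peak in the HHLA2 cluster and DRD3 in the TRPC7 cluster in both libraries. HTR2A is high in the SYT10, PTGIS, MME, MCHR2 and CYP2S1 clusters and lower in the TLL1, FOXP2, NPR3, HHLA2 and TRPC7 clusters.

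Inhibitory nuclei were split by the 2 main origins of cortical interneurons, the caudal (CGE) and the medial (MGE) ganglionic eminence, from markers such as ADARB2 and VIP or LHX6 and SST. CGE-like nuclei numbered 307 and 255, MGE-like nuclei 447 and 393, and 267 and 121 stayed unnamed. Of 11 members tested, 2 were at least 2-fold higher in CGE-like nuclei in both libraries (4.27% of features) and 2 at least 2-fold lower (4.35%). CHRNA7 stood at 491 and 481 CPM in CGE-like against 40.1 and 47.0 CPM in MGE-like nuclei, or 12.2-fold and 10.2-fold higher. ADRA1B stood at 136 and 135 CPM against 26.6 and 22.5 CPM. CHRM2 had log2 ratios of -2.25 (-2.65 to -1.86) and -3.71 (-4.79 to -2.81), and HTR2C of -2.35 and -2.97. These 4 calls were made in each of the alternatives of doublet removal, nucleus filter, resolution, scaling, weighting and depth.

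By cluster, CHRNA7 was high in all 3 clusters with ADARB2: the ADAMTS16 cluster (449 and 392 CPM), which held VIP and CALB2, the COCH cluster (564 and 642 CPM), which held RELN and NDNF, and the POSTN cluster (453 and 429 CPM), which held LAMP5 and, at 315 and 244 CPM, also the MGE gene LHX6. It lay at 8.15 to 162 CPM in the others. A UMI for CHRNA7 was found in 89.0% and 92.8% of COCH nuclei, or 51.1% and 65.1% after thinning. ADRA1B had a similar split, at 123 to 147 CPM in these 3 clusters and 3.51 to 28.5 CPM in the MYO18B, PDE3A, CBLN4 and LYPD6 clusters, but its highest level was in the CHODL cluster.

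The CHODL cluster, with NOS1, NPY and SST the profile of long-range projecting interneurons in other mammals, was small, with 22 and 12 nuclei. CHRM2 stood there at 740 CPM (615 to 882) and 679 CPM (528 to 860), against at most 173 and 97.8 CPM in any other inhibitory cluster, and 95.5% and 100% of its nuclei had a UMI. ADRA1B stood there at 349 CPM (265 to 451) and 394 CPM (281 to 536), against at most 147 and 143 CPM elsewhere. HTR2C had no UMI in this cluster in either band. The cluster was the top one for CHRM2 and ADRA1B in each library, with intervals that did not reach those of the next cluster.

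The CBLN4 and LYPD6 clusters, both high in SST, had the highest CHRM3, at 1474 to 1647 CPM, against 172 to 1053 CPM in the other inhibitory clusters. The CHODL cluster, also high in SST, stood at 673 and 620 CPM of CHRM3. They also had the top levels of HTR7 among clusters of over 50 nuclei, 20.1 and 32.2 CPM in the LYPD6 cluster and 10.9 and 16.7 CPM in the CBLN4 cluster. These rest on small sums, 32 and 15 UMIs in the LYPD6 cluster. HTR4 was highest in the MYO18B cluster, 58.4 CPM (50.2 to 67.5) and 64.3 CPM (54.4 to 75.4), with 22.3 and 41.2 CPM in the ADAMTS16 cluster and none in the COCH and POSTN clusters. The CHODL cluster gave 36.1 and 59.1 CPM of HTR4, on 6 UMIs in each band.

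CHRNA1 had 21 of its 25 upper-band and 20 of its 23 deeper-band inhibitory UMIs in the ADAMTS16 cluster, where it stood at 17.3 CPM (10.7 to 26.5) and 19.2 CPM (11.7 to 29.6). CHRNA3 was highest in the same cluster, at 14.9 and 8.62 CPM. CHRNA5 stood at 18.2 and 19.2 CPM there, at 17.2 and 8.34 CPM in the COCH cluster and at 22.9 and 19.5 CPM in the POSTN cluster, against at most 2.15 CPM in the MYO18B, CBLN4 and LYPD6 clusters and 24.4 CPM on 6 UMIs in the deeper-band PDE3A cluster. In inhibitory nuclei CHRNA1, CHRNA3, CHRNA5 and CHRNA7 were thus all high in the ADAMTS16 cluster in both libraries, although apart from CHRNA7 their sums were small.

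**Figure D4:**
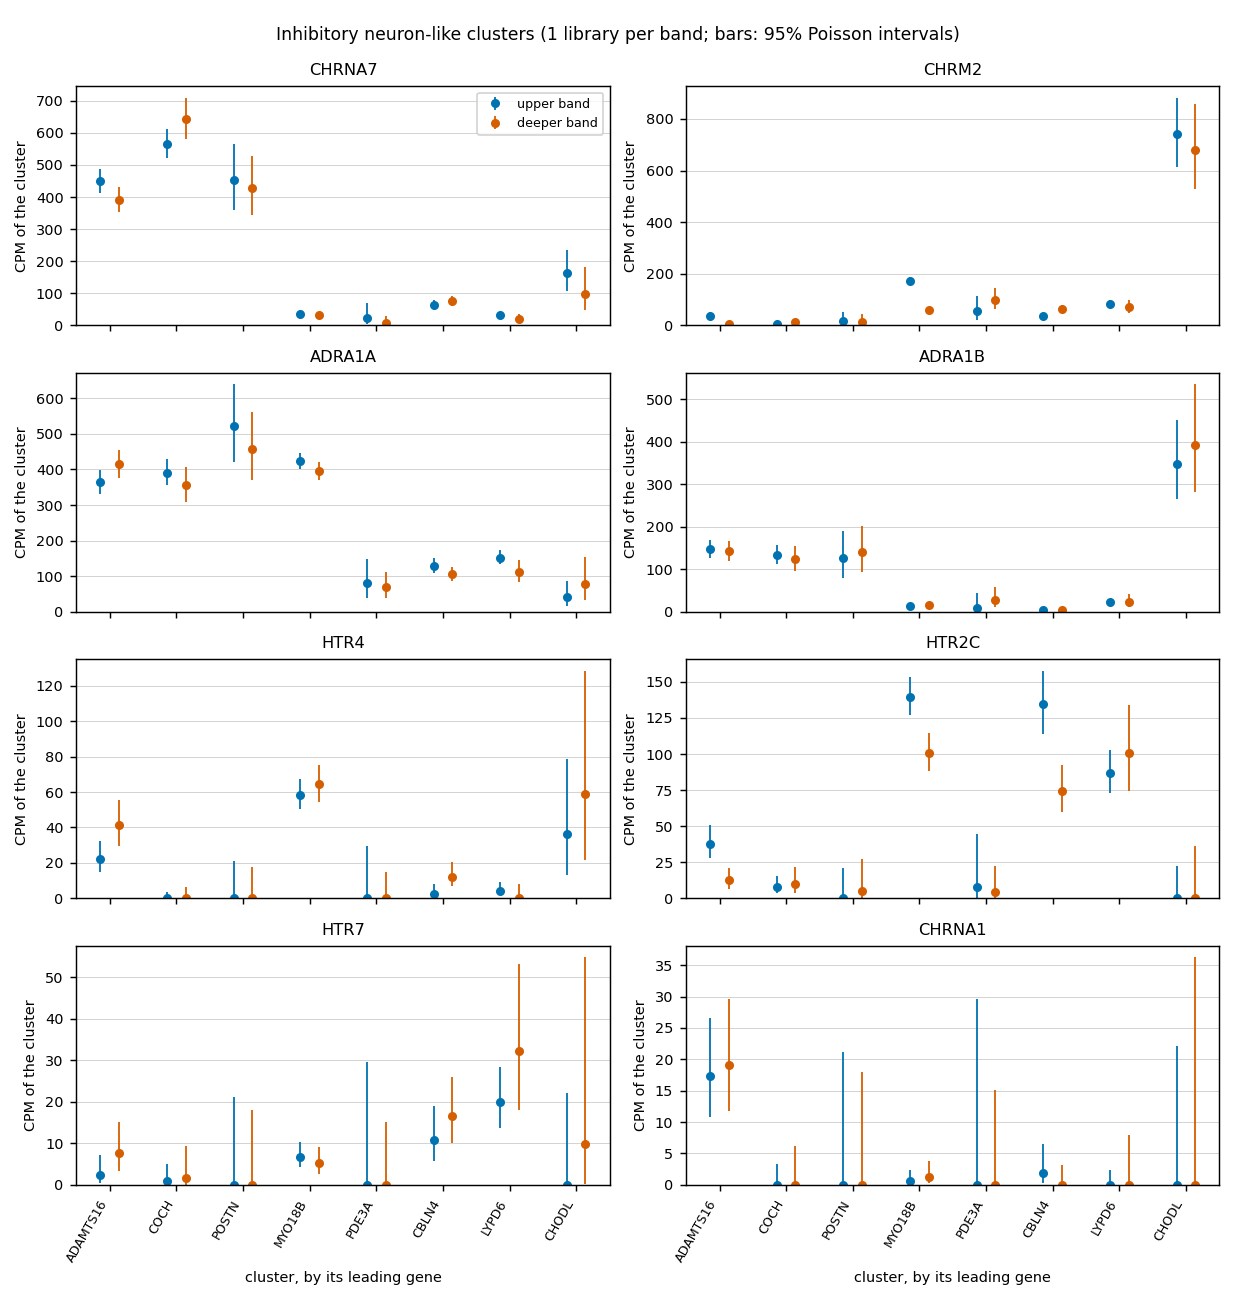
Level of 8 receptor genes (CPM, linear axes that start at 0) in the 8 inhibitory neuron-like clusters, named by their leading gene, in the upper-band (blue) and deeper-band (orange) library, with 95% Poisson intervals. CHRNA7 is high in the ADAMTS16, COCH and POSTN clusters, CHRM2 and ADRA1B in the CHODL cluster, and CHRM2 differs between bands in the MYO18B cluster (173 and 61.7 CPM).

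The labels of the 2 libraries differ in the band, so levels were also compared between bands. A member counted as different when its CPM in a class differed at least 1.5-fold and the class held at least 100 UMIs for it. In excitatory nuclei, 1 of 19 members was higher in the deeper band (3.38% of features) and 1 lower (6.19%). HTR2A was higher in the deeper band, at 124 against 70.9 CPM, with a log2 ratio of 0.80 (0.73 to 0.87). HTR2C was lower, at 35.5 CPM (33.6 to 37.4) against 91.5 CPM (88.4 to 94.6), a log2 ratio of -1.37 (-1.46 to -1.28). The other 17 members lay under 1.5-fold, and the median log2 ratio was -0.062 for the members and -0.022 for all features tested. Among them ADRA1B (-0.53), ADRA1A (-0.51) and DRD3 (-0.46) were lower and ADRA1D (0.43) and CHRNA7 (0.37) higher in the deeper band, with intervals clear of 0.

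The mix of excitatory clusters differed between the libraries. The SYT10 and PTGIS clusters made up 30.3% and 18.9% of excitatory nuclei in the deeper band against 6.70% and 4.64% in the upper band. The FOXP2, IQGAP2 and GALNT14 clusters made up 17.1%, 15.7% and 13.1% in the upper band against 3.51%, 4.62% and 3.83% in the deeper band, and the HHLA2 cluster 4.96% against 0.784%. When every cluster was given the same weight in both bands, an alternative added after the data were seen, HTR2C was no longer lower, with a log2 ratio of 0.30 (0.20 to 0.40). That of HTR2A was then 0.25 (0.18 to 0.33), and those of ADRA1B, ADRA1A, DRD3, ADRA1D and CHRNA7 were 0.074, -0.058, 0.054, 0.084 and 0.007. With equal cluster weights neither HTR2A nor HTR2C passed 1.5-fold, and the only member that did was HTR4, at 0.65 (0.35 to 0.95). With equal weights for subclusters HTR4 stood at 0.50 (0.17 to 0.82), under 1.5-fold. Over all excitatory nuclei its log2 ratio was -0.089 (-0.37 to 0.19).

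Within clusters, HTR2A was higher in the deeper band in 7 of the 9 excitatory clusters with at least 20 of its UMIs, for example 145 against 113 CPM in the MCHR2 cluster. HTR2C stood at 104 CPM (86.3 to 123) in deeper-band and 34.7 CPM (30.0 to 40.0) in upper-band nuclei of the FOXP2 cluster, and it was higher in the deeper band in 8 of 12 clusters. HTR4 had at least 20 UMIs in 2 excitatory clusters. It was higher in the deeper band in the TRPC7 cluster, with a log2 ratio of 1.51 (1.06 to 1.98), and lower in the HHLA2 cluster. A subcluster with HTR4 and TRPC7 among its top genes held 39 upper-band and 63 deeper-band nuclei. Another, with TRPC7 but not HTR4 among them, held 43 and 27, and the part of this mix was not tested. The ratio over all excitatory nuclei and the ratios within clusters thus mostly had opposite signs for HTR2C and the same sign for HTR2A.

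**Figure D5:**
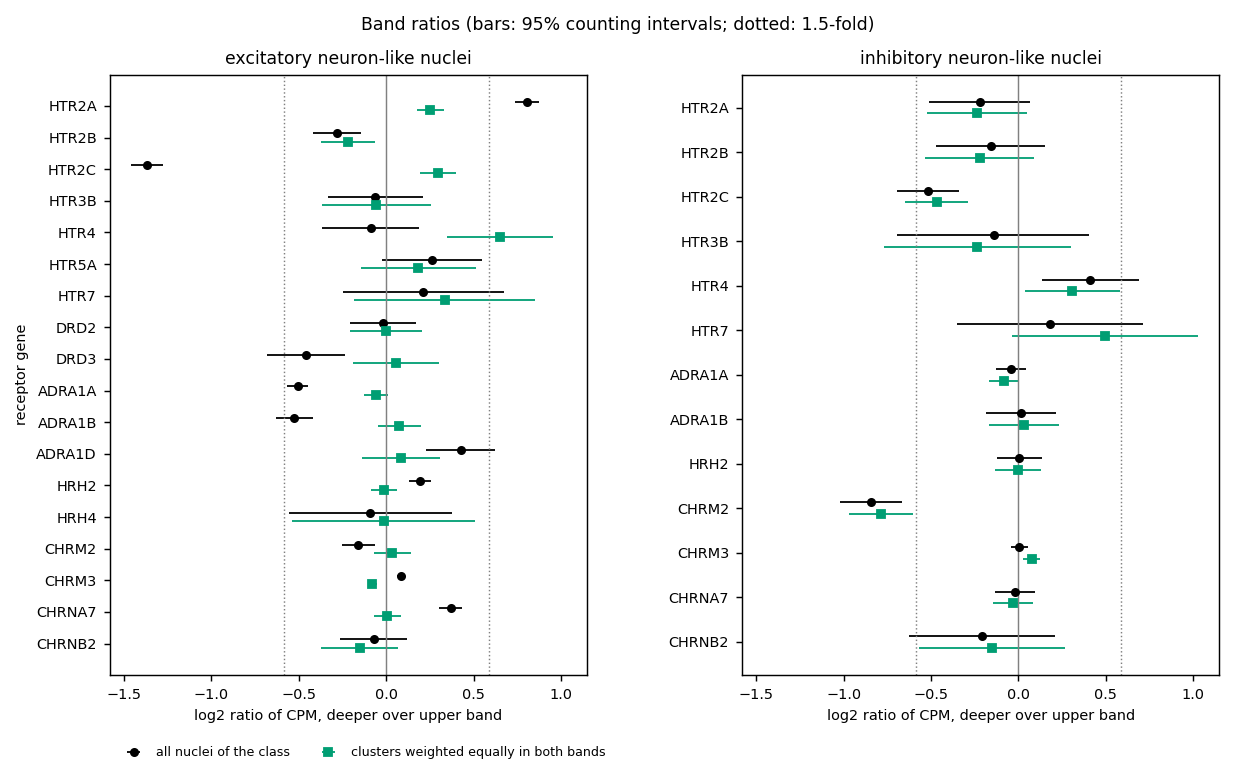
Log2 ratio of CPM, deeper over upper band, for receptor genes with at least 100 UMIs in excitatory (left) and inhibitory (right) neuron-like nuclei, with 95% counting intervals and dotted lines at 1.5-fold. Black points use all nuclei of the class and green squares give each cluster the same weight in both bands; HTR2C moves from -1.37 to 0.30 in excitatory nuclei, while CHRM2 stays low in inhibitory nuclei, at -0.84 and -0.79.

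In inhibitory nuclei none of 13 members was 1.5-fold higher in the deeper band (2.49% of features) and 1 was lower (2.09%). CHRM2 stood at 105 CPM (97.8 to 112) in the upper and 58.3 CPM (52.5 to 64.7) in the deeper band. Its log2 ratio was -0.84 (-1.02 to -0.66), or -0.79 (-0.97 to -0.60) with equal cluster weights. After thinning to 1500 UMIs it was -0.49, under 1.5-fold, and 9.74% and 6.56% of thinned inhibitory nuclei had a CHRM2 UMI. The MYO18B cluster, with 299 and 220 nuclei, gave 173 CPM (159 to 188) in the upper and 61.7 CPM (52.0 to 72.7) in the deeper band, and thinned nuclei there had a UMI in 20.1% and 8.26%. The CHODL cluster, where CHRM2 was highest, gave 740 and 679 CPM, and the CBLN4 cluster gave more in the deeper band, 63.1 against 36.3 CPM. With equal weights for subclusters the log2 ratio was -0.45 (-0.65 to -0.26), under 1.5-fold. A subcluster led by OSTN, left unnamed, held 136 upper-band and 41 deeper-band nuclei and stood at 228 and 122 CPM, and an MGE-like subcluster led by CLCN1, with 39 nuclei in each band, at 221 and 79.4 CPM.

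HTR2C in inhibitory nuclei stood at 90.5 and 63.2 CPM, with a log2 ratio of -0.52 (-0.70 to -0.34), and HTR4 at 0.41 (0.13 to 0.69), both under 1.5-fold. HTR2C passed 1.5-fold as lower in the deeper band after thinning, at -0.80, and without doublet removal, at -0.68. In the CBLN4 cluster HTR2C was lower in the deeper band, 74.5 against 134 CPM. CHRM3, ADRA1A, CHRNA7, ADRA1B and HRH2 had log2 ratios between -0.04 and 0.02. Most of the inhibitory receptor levels were thus close in the 2 libraries.

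Few members had enough UMIs in the other classes. Of 4 in astrocyte-like nuclei (ADRA1A, ADRA1B, CHRM3 and HTR2B), 3 in oligodendrocyte-like nuclei and 1, HTR2B, in precursor-like nuclei, none passed 1.5-fold, against 5.34%, 3.90% and 4.13% of features either way. In precursor-like nuclei the HTR2B log2 ratio was 0.20 (-0.37 to 0.77), and in astrocyte-like nuclei that of ADRA1A was 0.14 (-0.06 to 0.35) and that of ADRA1B -0.31 (-0.61 to 0.00). The intervals of HTR2B and of ADRA1B reach past 1.5-fold. In vascular-like nuclei CHRM3 had a log2 ratio of 1.10 (0.69 to 1.499), where 29.6% of features passed either way and 12.6% were higher, so this share is a poor yardstick for any gene of that class.

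Genes that make, move and break down the transmitters, and genes that act with the receptors, were taken from lists chosen with the receptors. CHAT, the enzyme that makes acetylcholine, and SLC18A3, its vesicular carrier, had no UMI. TH, the first enzyme of dopamine and noradrenaline synthesis, had 4 UMIs, SLC18A2, the vesicular monoamine carrier of neurons, 15, TPH2, the enzyme of serotonin synthesis in neurons, 122, and the serotonin uptake carrier SLC6A4 201. Of the 18 monoamine genes, 9 were tested between neuron classes, and SLC18A1 and SLC22A3 were at least 2-fold higher in inhibitory nuclei (7.21% of features) and none lower (7.62%). SLC22A3, a low-affinity monoamine carrier, stood at 29.0 and 23.6 CPM in inhibitory, 34.8 and 30.7 CPM in astrocyte-like and 38.3 and 37.9 CPM in precursor-like nuclei. Excitatory nuclei gave 0.835 and 0.499 CPM and oligodendrocyte-like nuclei 0.483 and 0.239 CPM. MAOB, which breaks down monoamines, stood at 47.9 and 55.3 CPM in oligodendrocyte-like, 51.97 and 56.8 CPM in precursor-like and 25.7 and 34.2 CPM in astrocyte-like nuclei, against at most 5.71 CPM in neurons. HNMT, which breaks down histamine, stood between 33.7 and 57.0 CPM in these 3 glial classes and at most at 23.7 CPM in neurons.

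Of 7 acetylcholine genes, 3 had enough UMIs over the classes and 2 of these were class-enriched. PRIMA1, the membrane anchor of acetylcholinesterase, stood at 236 and 229 CPM in oligodendrocyte-like nuclei, where 2.88% of features were enriched, and BCHE, butyrylcholinesterase, at 82.1 and 79.9 CPM in precursor-like nuclei. ACHE, acetylcholinesterase, was higher in inhibitory (12.1 and 16.6 CPM) than in excitatory nuclei (5.28 and 5.64 CPM). The enzymes that break acetylcholine down were thus found in nuclei of this cortex, with no UMI for CHAT.

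Of 8 genes listed as nicotinic chaperones and modulators, 4 were tested between neuron classes, and LYPD6, a protein that binds nicotinic receptors, was higher in inhibitory nuclei (7.21% of features), at 123 and 52.3 CPM against 4.33 and 3.28 CPM. NACC1, a regulator of transcription and not a nicotinic chaperone, was in this list and is part of its counts. Of 3 tested between bands in inhibitory nuclei, LYPD6 was at least 1.5-fold lower (2.09% of features) and NACC1 higher (2.49%) in the deeper band, and the LYPD6 cluster made up 20.3% of upper-band and 8.06% of deeper-band inhibitory nuclei. RIC3, a chaperone of CHRNA7, was even, at 76.9 and 81.9 CPM in excitatory and 83.0 and 78.9 CPM in inhibitory nuclei. Of 27 G protein and effector genes, 24 were tested between neuron classes, and PPP1R1B, a phosphatase regulator of dopamine-responsive cells, and GNA14, a Gq-type subunit, were lower in inhibitory nuclei (7.62% of features) and none higher. In the band comparison of excitatory nuclei 2 of these 24, PRKCA and GNA14, were higher in the deeper band (3.38% of features) and none lower (6.19%), with a median log2 ratio of 0.10.

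Among these effectors GNAI1 and PRKCA were class-enriched in oligodendrocyte-like nuclei (2.88% of features). Of 12 desensitisation genes, RGS2 and GRK5 were at least 2-fold higher (7.21% of features) and RGS4 and RGS14 at least 2-fold lower (7.62%) in inhibitory than in excitatory nuclei. None passed 1.5-fold between bands in either neuron class. ARRB1, a beta-arrestin, was class-enriched in astrocyte-like nuclei (2.93% of features), with 133 and 151 CPM against 0.718 to 43.7 CPM in the other classes. Of 7 monoamine genes tested between bands in excitatory nuclei, PNMT, which makes adrenaline, was higher (3.38% of features) and SLC18A1 and SLC29A4 were lower (6.19%) in the deeper band.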

How the data were processed

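For each of the 2 libraries the authors deposited a matrix of raw UMI counts, genes by barcodes, as whole numbers, and per the file headers it came from software of version 3.1.0. The submitters' processing notes name Cell Ranger 6.2.1 and Cell Ranger 2.1.1 without their roles. The genome build, the annotation and the treatment of introns are not given in the sources used here, and no sequence or coordinate is printed. The titles call the samples replicates, but their region labels differ, so each band had 1 library.

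Barcodes with at least 500 detected genes were kept (7091 and 9608). Scrublet (scanpy 1.11.5) called 830 nuclei (11.7%) and 1458 nuclei (15.2%) as doublets, against expected rates of 5.67% and 7.69%, and these were removed. No correction for free RNA was made. Each nucleus was scaled to 10000 counts before a log transform, 2000 variable genes were chosen with the library as batch, the 10 receptor genes among them were left out, and Leiden clustering (leidenalg 0.10.2, igraph 0.11.9, resolution 1) was run on 15 nearest neighbours over 30 principal components. A marker counted as raised in a cluster at 1/3 of its highest CPM over clusters and a UMI in 10% of nuclei, and a cluster was named for the class with most raised markers if at least 3 were raised and no other class competed. Neuron classes were clustered again for subclasses.

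UMIs were summed per class and library. Levels carry exact Poisson intervals, shares Clopper-Pearson intervals and log2 ratios exact conditional binomial intervals, at 95%. A class was used with at least 50 nuclei in each library, a limit set after the data were seen. Some features are not reported here by name, but are part of the counts. Receptor genes with at least 100 UMIs are otherwise given by class, and those that were class-enriched, past 1.5-fold between bands or past 2-fold between classes or subclasses are described in full. Of the other lists, genes that passed these rules are named, with a few added after their values were seen. The calculation of the band ratios was checked on Poisson counts simulated from the summed excitatory counts. Such counts hold no variation between nuclei, animals or libraries, so the check covers counting error alone. The members and lists were chosen with earlier results of these data known.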

Additional observations from a re-analysis of the deposited data

How the results depend on the processing

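No paired analysis was possible because each band had 1 library, so no replicates and no leave-one-out alternatives existed. The other settings were scaling, nucleus weighting, doublet removal, gene minimum, depth, resolution and receptor genes kept for clustering. Under them 340 of the band ratios computed stayed inside the counting interval and 26 left it. Of the class and subclass ratios 734 stayed, 159 left it and 3 changed sign from an interval that excluded equal levels. Ratios whose interval included equal levels could also change sign, and such changes were not counted apart. The cause of the changes below was not tested. Shares of all features were not computed under the other settings, so the counts below do not single out the receptor genes.

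The 4 class-enriched members became 8 with 2 times as many doublets removed and 7 with at least 1000 genes per nucleus or at resolution 0.5, settings that left no vascular-like class to compare. They became 7 when that class alone was left out, and 7 with no minimum of UMIs. With no minimum of UMIs, sums of a few UMIs passed the folds: 7 members were then higher and 12 lower in deeper-band excitatory nuclei, 7 higher and 10 lower in inhibitory nuclei, and 14 and 16 differed in astrocyte-like and oligodendrocyte-like nuclei. Likewise 9 were higher in inhibitory than in excitatory nuclei, 5 lower in deep-layer-like nuclei, and 8 higher and 4 lower in CGE-like nuclei. A minimum of 20 UMIs gave 5 lower in deeper-band excitatory nuclei, 2 lower in inhibitory nuclei, 2 and 3 in the 2 glial classes and 5 higher in CGE-like nuclei.

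Of the lower calls in deeper-band excitatory nuclei there were 2 with more doublets removed (ADRA1A added), 2 with nuclei weighted equally (ADRA1B added) and 0 with equal cluster or subcluster weights; equal subcluster weights also left 0 higher calls there and 0 lower calls in inhibitory nuclei. Without doublet removal HTR2C joined CHRM2 as lower in inhibitory nuclei (2), and with nuclei weighted equally HTR2B passed in oligodendrocyte-like nuclei (1). Thinning to 1500 UMIs kept HTR2C, not CHRM2, as the lower call in inhibitory nuclei. Higher calls in inhibitory over excitatory nuclei were 3 with more doublets removed and 2 after thinning; in deep-layer-like nuclei the higher calls were 2 after thinning, and the lower calls 0 with more doublets removed, 0 after thinning and 1 at resolution 2.

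Some excitatory log2 ratios with intervals clear of 0 changed sign when weights were equal in both bands. With equal cluster weights they were those of HRH2 (-0.012), ADRA1B (0.074), CHRM2 (0.035), DRD3 (0.054), CHRM3 (-0.079) and HTR2C (0.30). With equal subcluster weights they were those of ADRA1B (0.097), CHRM2 (0.12), CHRM3 (-0.076), HTR2C (0.31) and CHRNA7 (-0.036). The ratio of HTR4, whose interval included 0 (-0.37 to 0.19), also changed sign, from -0.089 to 0.65 and 0.50. With more doublets removed, in the deeper band, CHRM2 changed sign between inhibitory and excitatory nuclei (-0.095), DRD2 between deep-layer-like and upper-layer-like nuclei (0.028) and HTR4 between CGE-like and MGE-like nuclei (0.14). The UMI sums limit what can be said of the 25 members under 100 UMIs and of all members in the vascular-like class. What set these sums was not tested.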
